A study of Mus musculus with 3 samples.

Results

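The 9 glutamate receptor genes described here are Grik1, Grik2, Grik3 and Grik5, which encode kainate receptor subunits, and Grm2, Grm3, Grm4, Grm5 and Grm7, which encode metabotropic glutamate receptors. They were chosen by symbol, as a listed gene family, among the 28001 features of a single-cell RNA data set of the mouse nucleus accumbens. All 9 were found. Earlier results of these data were known when the list was chosen. The data come from 3 samples of 1 group: Thy1::ChR2 mice, in which the Thy1 promoter drives the light-gated channel channelrhodopsin-2 in projection neurons, labelled with FLiCRE while ChR2 was stimulated with light in the accumbens, and dissected as a 400 um coronal piece. FLiCRE is a reporter system that turns calcium coinciding with light into transcription of a reporter, taken here to be the mCherry feature. No unstimulated or unlabelled group was analysed here, so all comparisons are between cell classes of the same libraries. Age and sex are not in the labels, and the labels do not say that the samples came from separate mice. The p-values therefore measure how a class difference varies between these 3 libraries, which may be technical.

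Kainate receptors are glutamate-gated ion channels built from subunits, in which GluK2 and GluK3 (from Grik2 and Grik3) can form channels alone and GluK5 (from Grik5) needs one of the other subunits. Metabotropic glutamate receptors are G-protein coupled: mGlu5 (Grm5, group I) signals through Gq to phospholipase C, whereas mGlu2 and mGlu3 (group II) and mGlu4 and mGlu7 (group III) signal through Gi/o and often sit on nerve terminals. In the accumbens the receptors meet glutamate released from cortical, thalamic, hippocampal and amygdalar axons onto spiny projection neurons, which fall into a Drd1 (dopamine D1 receptor) type and an Adora2a (adenosine receptor) type, and mGlu3 is also known as a receptor of astrocytes.

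Cells were assigned to classes by counts of marker genes, and UMIs (tags that count each captured RNA molecule once) were summed per class and library. Levels are CPM, the count per 1000000 UMIs of that class and library. Because the counts are of 3′ ends and genes differ in how well they are captured, levels are compared between classes for 1 gene and not between genes. After filtering, 9923 cells remained, with 2306, 5783 and 1834 cells in libraries 1, 2 and 3 and 2788685, 14563414 and 6267259 UMIs. Library 2 therefore carries most of the depth. The library number is a name only, and pairs of libraries shared 7 to 22 barcode sequences. The spiny neurons comprised 1424 cells of the Drd1 type, 1123 of the Adora2a type and 1214 of neither, among 3761 in all. Other classes ranged from 1230 oligodendrocytes and 894 astrocytes to 89 oligodendrocyte precursors, 46 Sst-Npy interneurons and 34 Pvalb interneurons. The Drd1-type cells carried Drd1 at 716 ± 208 CPM (SD, n = 3) against 11.0 ± 11.5 in the Adora2a type, and the Adora2a-type cells carried Adora2a at 1015 ± 424 CPM against 11.4 ± 7.0. Drd2, the usual marker of the second type, was at or near 0 in both (3 and 9 UMIs in all), so that type is named here by Adora2a. Whether the counting or the annotation sets this level of Drd2 was not tested, and it is not read as a lack of expression. Non-neuronal classes held the 6 neuron markers at a summed level of 0 to 14.6% of that in spiny neurons, highest in library 2 for every such class except fibroblasts, where library 3 was. In class sums, fewer expressing cells and less RNA per cell cannot be told apart.

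The kainate subunit genes Grik3 and Grik2 differed in opposite directions between the 2 spiny types, so the 250 bases before the RefSeq start of each are shown first, 5′ to 3′ on the gene's own strand with CG dinucleotides in capitals (RefSeq, GRCm38.p6). The first is chr4:125490446-125490695 on the plus strand, ending at the RefSeq start of Grik3. The second is chr10:49788755-49789004 on the minus strand, ending at that of Grik2.

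Grik3: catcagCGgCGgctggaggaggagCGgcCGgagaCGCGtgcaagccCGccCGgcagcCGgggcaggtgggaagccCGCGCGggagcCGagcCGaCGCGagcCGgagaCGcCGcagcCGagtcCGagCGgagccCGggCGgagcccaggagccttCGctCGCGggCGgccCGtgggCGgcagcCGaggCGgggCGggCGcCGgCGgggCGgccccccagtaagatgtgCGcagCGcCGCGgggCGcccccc
Grik2: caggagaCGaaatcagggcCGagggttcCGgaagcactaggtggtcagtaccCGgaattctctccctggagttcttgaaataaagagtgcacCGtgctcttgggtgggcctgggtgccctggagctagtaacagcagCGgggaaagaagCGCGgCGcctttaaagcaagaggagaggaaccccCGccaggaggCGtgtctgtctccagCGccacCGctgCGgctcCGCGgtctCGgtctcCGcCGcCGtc

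The Grik3 stretch held 42 CG dinucleotides and was 82% G or C, more CG than 99.1% of the 32851 promoter windows in the table. The Grik2 stretch held 20 and was 62.8% G or C, more CG than 82.1% of windows. The median window held 6 CG and was 52.4% G or C. Neither stretch held the letters TATAAA (12.4% of all windows on either strand) or TGACG (17.8%), which says only that these letters are not in these windows. Of the 9 genes, 6 had an entry in the table, and Grik1, Grm4 and Grm5 had none. In GRCm38 (GENCODE vM21), Grik3 (ENSMUSG00000001985) spans chromosome 4 from 125490700 to 125714173, and Grik2 (ENSMUSG00000056073) spans chromosome 10 from 49094833 to 49788766. Grm5 (ENSMUSG00000049583) spans chromosome 7 from 87584168 to 88134907, and Grm3 (ENSMUSG00000003974) chromosome 5 from 9485541 to 9725170. The UMIs are counts per gene and cannot be placed in single exons.

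**Figure D1:**
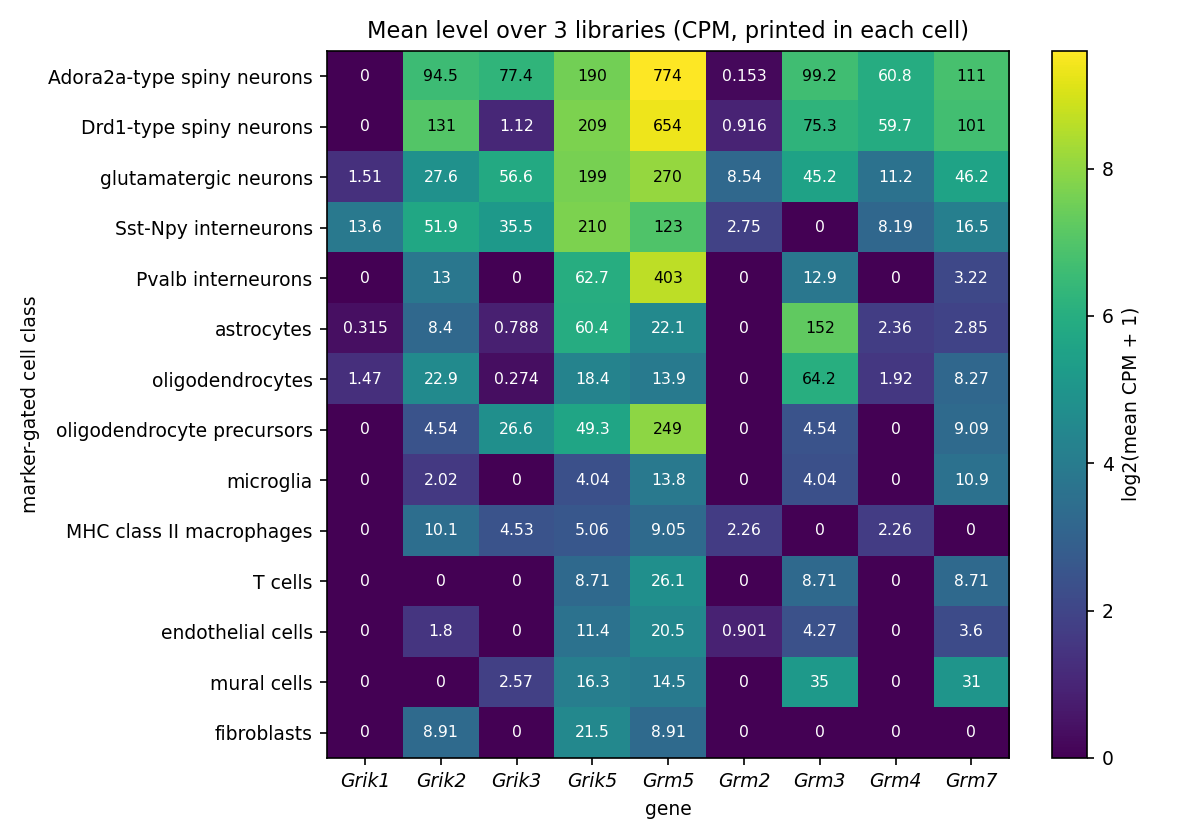
Heat map of the mean level over 3 libraries (CPM, printed in each cell; colour on a log2(CPM + 1) scale) of the 9 genes (x axis) in 14 marker-gated classes (y axis). Grik3 stands at 77.4 CPM in Adora2a-type and 1.12 CPM in Drd1-type spiny neurons, Grm3 is highest in astrocytes at 152 CPM, and Grik1 and Grm2 are near 0 in most classes.

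The comparison of the Adora2a type with the Drd1 type asks how the receptor genes differ between the 2 spiny neuron types. Grik3 was high in the first and close to absent in the second, Grm5 was slightly higher in the Adora2a type and Grik2 lower, and Grik5, Grm3, Grm4 and Grm7 did not pass the test. Grik1 had 0 UMIs in both types, and Grm2 had 1 UMI in the Adora2a type and 5 in the Drd1 type, too few to test. Sums were compared with edgeR's quasi-likelihood test with library as a block and Benjamini-Hochberg adjustment over 8204 genes at 0.05, of which 3.47% passed (1.77% higher and 1.71% lower in the Adora2a type). Of the 7 receptor genes tested, 3 passed, and the median log2 fold change of the 7 was -0.02 beside 0.01 over all genes. The list was chosen with earlier results of these data known, and Grik3 was already named as an Adora2a-type gene. Grik3 also met the filter on low counts only through the Adora2a type. This share and the Grik3 call are therefore descriptions and not independent support.

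Grik3, the subunit gene that set the types apart most, was at 87.6, 61.5 and 83.0 CPM in the Adora2a type (20, 134 and 58 UMIs) in libraries 1, 2 and 3. In the Drd1 type it was at 0, 1.88 and 1.50 CPM (0, 6 and 1 UMIs). The groups did not overlap, and all 3 libraries pointed the same way. The level was 32.8-fold higher in library 2 (95% interval 14.7 to 90.8, exact binomial, counting error only). It was 55.5-fold higher in library 3 (9.58 to 2230). In library 1, where the Drd1 type had 0 UMIs, it was 6.01-fold higher against a floor of 3 counts, and the 95% interval starts at 4.45. The fitted log2 fold change was 5.21 (SE 0.32, adjusted p 3.04e-55 in edgeR); this fit gave nearly all genes a common spread, so the very small p rests on that. At least 1 Grik3 UMI was found in 16.9% of 1123 Adora2a-type cells and 0.492% of 1424 Drd1-type cells, with medians of 2463 and 2516 UMIs per cell. The same share was 0 of 261 microglia and 0 of 439 endothelial cells, with medians of 999 and 1290 UMIs. Thinned to 1000 UMIs per cell (leaving out 75 and 76 shallower cells), the shares were 7.82% and 0.223%.

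Spiny neurons that met neither type's gate held intermediate Grik3, at 10.2, 27.1 and 18.3 CPM. They carried a median of 3 UMIs of each type's marker panel, against 20 own-panel UMIs in Adora2a-type and 9 in Drd1-type cells. With classes taken from Leiden clusters in place of gates, the Grik3 difference stayed in direction and fell to a log2 fold change of 2.80 (SE 0.19). That Drd1 cluster class also took in 395 neurons outside the spiny gate, which held Grik3 at 47.5 CPM. Its 950 untyped spiny neurons stood at 14.9 CPM and its 43 Adora2a-gated cells at 54.3 CPM. Its 1397 Drd1-gated cells stood at 1.27 CPM.

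Grik2, which encodes the most widely used kainate subunit, was at 165, 109 and 118 CPM in the Drd1 type and 101, 69.7 and 113 CPM in the Adora2a type. It was lower in the Adora2a type in each library, by a log2 fold change of -0.46 (SE 0.13, adjusted p 0.0169 in edgeR), but the 2 ranges overlapped and the library 3 values were close. Grm5, the abundant postsynaptic group I receptor of spiny neurons, was at 740, 668 and 915 CPM in the Adora2a type and 598, 586 and 779 CPM in the Drd1 type. It was higher in the Adora2a type in each library, by 0.25 on the log2 scale (SE 0.07, adjusted p 0.0158 in edgeR), and the ranges overlapped across libraries. Both calls ended when any 1 library was left out, with DESeq2, without the block, without the filter on low counts, with a stricter gate and with all classes in 1 fit; the Grik3 call did not. The Grik2 call also ended with Leiden classes (adjusted p 0.792 in edgeR), where Grm3 passed (0.53, SE 0.13).

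Grik5, the accessory high-affinity subunit gene, was at 223, 149 and 196 CPM in the Adora2a type and 257, 167 and 203 CPM in the Drd1 type. Its fitted difference was -0.12 (SE 0.10, adjusted p 0.821 in edgeR). Grm3 was at 87.6, 56.9 and 153 CPM against 58.3, 47.8 and 120 CPM, with a difference of 0.34 (SE 0.15, adjusted p 0.285 in edgeR). Grm3 was higher in the Adora2a type in each library, and libraries differed from each other by more than the types did. The group III genes Grm4 (-0.02, SE 0.17) and Grm7 (-0.06, SE 0.13) had fitted differences whose sign depended on the setting. Grm4 lay between 46.3 and 78.8 CPM in both types, and Grm7 between 64.2 and 142 CPM.

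**Figure D2:**
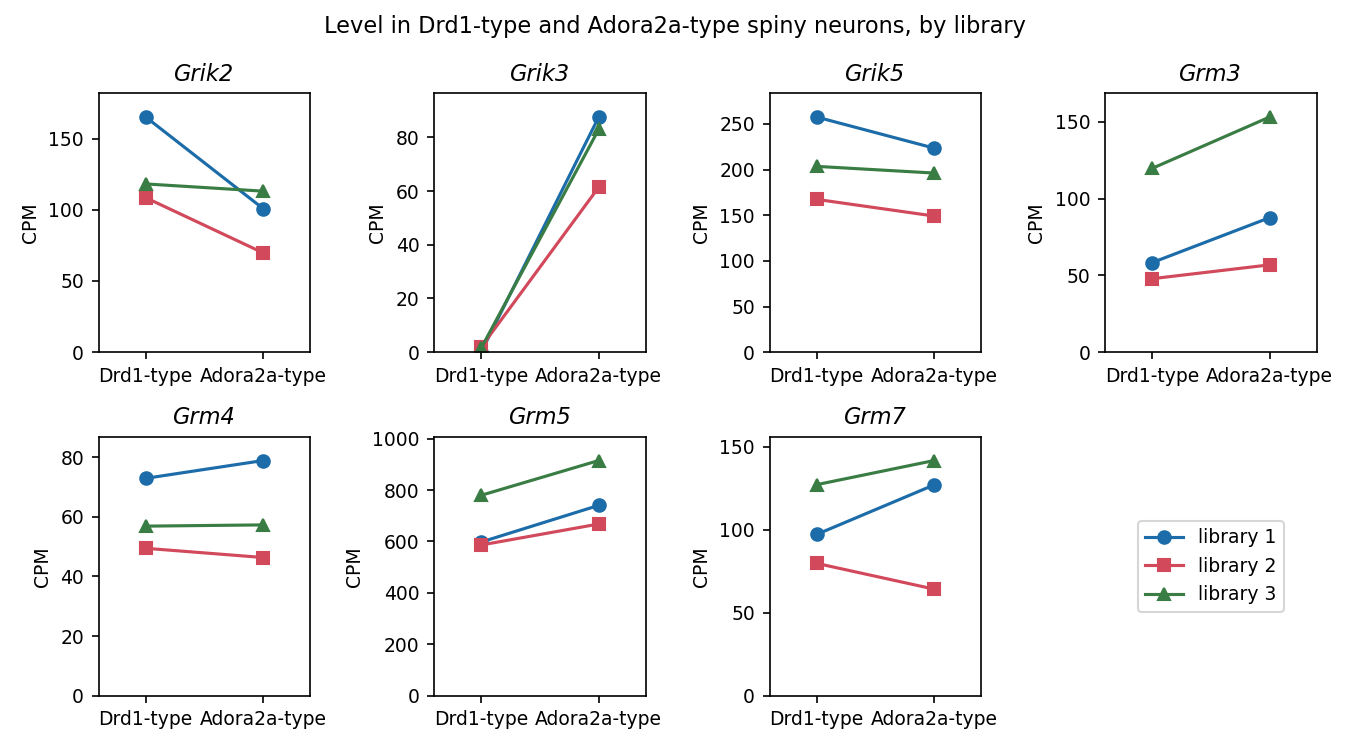
Level (CPM, linear axes from 0) of the 7 tested genes in Drd1-type and Adora2a-type spiny neurons, 1 line per library. Grik3 rises from at most 1.88 CPM to between 61.5 and 87.6 CPM in every library. Grm5 rises slightly in each, and Grik2 falls in each, least in library 3. Grik5, Grm3, Grm4, Grm5 and Grm7 shift less than the libraries differ, and the Grik2 ranges overlap between the types.

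Of the wider pathway list of 22 genes (other receptors of both families, Neto auxiliary subunits, Homer scaffolds, G proteins and their effectors), 15 were tested and 3 passed between the spiny types. Neto2, an auxiliary subunit of kainate receptors, was higher in the Adora2a type by 0.39 on the log2 scale (SE 0.11, 200 ± 44.5 against 163 ± 45.3 CPM, SD, n = 3). Gnao1, the Go alpha subunit, was higher by 0.35 (SE 0.08), and Gnai1, a Gi alpha subunit, lower at -0.77 (SE 0.14, 58.4 ± 16.1 against 97.3 ± 34.8 CPM). All 3 moved the same way in the 3 libraries, the ranges overlapped between types, and each call ended under at least 1 alternative. An end of the call under at least 1 alternative also holds for the pathway genes named with values in the comparisons of glutamatergic neurons, Sst-Npy interneurons and precursors, but for none of those named for astrocytes over spiny neurons.

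In glutamatergic neurons of the dissection (327 cells, gated on cortical-type markers), Grm4, Grik2, Grm5 and Grm7 were lower than in all spiny neurons, and Grik5 and Grik3 did not pass. Over 8690 genes 17.1% passed in edgeR (9.48% higher and 7.58% lower), and 4 of the 7 receptor genes tested passed. Of these, Grm4 met the filter on low counts only through spiny neurons, so its call follows in part from that. Grm4 stood at 17.2, 7.95 and 8.42 CPM against 74.5, 48.5 and 54.8 CPM in spiny neurons, a log2 fold change of -2.52 (SE 0.29, adjusted p 0.00051 in edgeR), with no overlap. Grik2 stood at 34.3, 28.4 and 20.2 CPM against 106, 87.5 and 102 CPM (-1.83, SE 0.24), also without overlap. Grm5 (-1.38, SE 0.20) and Grm7 (-1.22, SE 0.27) were lower in each library. Without library 3 none of these calls held (107 of all genes passed, against 1483 with all 3 libraries) and without library 2 only 2 did (502 of all genes). Grm3 was lower by -1.33 (SE 0.41, adjusted p 0.0603 in edgeR), with library 1 higher than spiny neurons (94.3 against 71.4 CPM) and libraries 2 and 3 lower. Grik3 ranged from 9.09 CPM in library 2 to 32.0 and 129 CPM in libraries 3 and 1, around a fitted difference of -0.01 (SE 0.44). The spiny reference pools both types, at 34.9, 26.3 and 34.6 CPM in libraries 1 to 3, a Grik3 level that neither type held. Grik5 was at 283, 125 and 189 CPM against 236, 165 and 208 CPM in spiny neurons, higher in library 1 and lower in libraries 2 and 3. Grm2, a mostly presynaptic group II receptor gene, had its highest level here, at 17.2, 3.41 and 5.05 CPM, from 2, 3 and 3 UMIs. Glutamatergic gated cells carried 8.5 to 20.2% of the spiny marker level of spiny neurons in the same libraries. Of the 22 pathway genes 17 were tested and 5 passed; Homer2, a scaffold gene, was higher (2.74, SE 0.45) and Neto2 lower (-1.74, SE 0.22), and Plcb4, Homer1 and Neto1 were the others.

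Interneurons were few. In the Sst-Npy class (9, 27 and 10 cells), Grm5 was at 0, 124 and 245 CPM against 645, 600 and 755 CPM in spiny neurons, a log2 fold change of -2.09 (SE 0.35, adjusted p 0.0024 in edgeR). In library 1 a floor of 3 counts stands at 225 CPM. Sst-Npy cells carried 8.6%, 23.7% and 10.9% of the spiny marker level, and Grm5 at 0%, 20.6% and 32.5% of its spiny level. Whether RNA of spiny neurons adds to these counts was not tested. Grm3 had 0 UMIs in every Sst-Npy library, which against a floor of 3 counts over the class makes spiny neurons at least 4.30-fold higher. Over 6525 genes 10.7% passed in edgeR (5.18% higher and 5.53% lower), and 2 of the 7 receptor genes tested did. Neither Grm3 nor Grm5 met the filter on low counts by its Sst-Npy sums alone. Both calls follow in part from their level in spiny neurons. With 1 library left out neither call held, but only 3, 0 and 0 of all genes then passed in edgeR (699 with all 3 libraries), so this says nothing particular about Grm5 or Grm3. Grik2, Grik3 and Grik5 did not pass: Grik3 stood at 0, 41.3 and 65.3 CPM (9 UMIs in all), and Grik5 at 449, 99.0 and 81.6 CPM (6, 12 and 5 UMIs). The spiny Grik3 level is here too that of both types pooled. In simulated data this comparison found 5% of 2-fold and 40% of 4-fold changes, so not passing says little. Grik1, with 1 UMI in all spiny neurons, had 3 UMIs here (0, 8.25 and 32.7 CPM), its highest level in any class. Of the 22 pathway genes 14 were tested and 6 passed, among them Plcb4, which encodes a phospholipase C, at 210 ± 114 against 6.21 ± 6.02 CPM (4.76, SE 0.59). Homer1 (-2.91, SE 0.45), Itpr1 (-2.18, SE 0.34) and Ncdn (-0.95, SE 0.25) were lower. Pvalb interneurons (8, 21 and 5 cells), which were not tested, held Grm5 at 262, 444 and 501 CPM and 0 UMIs of Grik3 and Grm4. A floor of 3 counts stands there at 157, 29.0 and 88.5 CPM. It lies above the spiny level of Grik3 in every library and of Grm4 in libraries 1 and 3. In those libraries the 0 counts alone do not show a lower level.

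Astrocytes showed a different set. Compared with all spiny neurons, Grm3 was higher in astrocytes and the other 6 tested genes lower. Grm3 stood at 172, 96.4 and 187 CPM in astrocytes against 71.4, 49.9 and 120 CPM in spiny neurons, at 241%, 193% and 156% of spiny neurons in libraries 1 to 3, with overlapping ranges. The fitted log2 fold change was 1.50 (SE 0.23, adjusted p 0.00071 in edgeR). It is larger than the CPM ratios because TMM scaling moved the median of all genes by 0.55 relative to class totals. With totals alone it was 0.94 (SE 0.21, adjusted p 0.00536 in edgeR). Over 9459 genes 60.5% passed (29.3% higher and 31.1% lower), so that 7 of 7 receptor genes passing is a share over a high background. The astrocyte sums of Grik2, Grik3, Grm4, Grm5 and Grm7 alone did not meet the filter on low counts. These genes were tested because of their level in spiny neurons, and their calls follow in part from that. Of 5719 passing genes 2774 were higher under TMM, and of 6303 passing genes 1889 under totals alone.

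Among the lower genes, Grm5 was at 5.81, 35.0 and 25.5 CPM in astrocytes, or 0.900%, 5.83% and 3.39% of spiny neurons. The 6 neuron markers stood at 0.758%, 8.61% and 2.60% of their spiny level in the same astrocytes. Whether the remaining Grm5 counts come from neuronal RNA was not tested. Grik5 was the receptor gene that kept the largest part of its spiny level: 65.8, 50.1 and 65.3 CPM, 27.8%, 30.5% and 31.4% of spiny neurons (log2 fold change -1.18, SE 0.19). That is above the neuron markers' share in all 3 libraries. Grik2 kept 5.46%, 17.3% and 4.18%, and Grik3, Grm4 and Grm7 between 0 and 11.7% in any library. For Grik3 the spiny level is again that of both types pooled, with the Drd1 type alone at 0, 1.88 and 1.50 CPM. Grm3 UMIs were found in 26.4% of 894 astrocytes (median 1990 UMIs), in 0.766% of 261 microglia and in 0.683% of 439 endothelial cells. At 1000 UMIs per cell the astrocyte share was 14.4%, and it was 0 of 130 microglia and 0 of 272 endothelial cells. Of 16 tested pathway genes 13 passed. Homer3, a Homer scaffold, was higher in astrocytes (46.2 ± 13.1 against 1.70 ± 0.327 CPM; 5.04, SE 0.35), as was Gnai2, and the other 11, among them Homer1 (-3.42, SE 0.25), were lower.

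**Figure D3:**
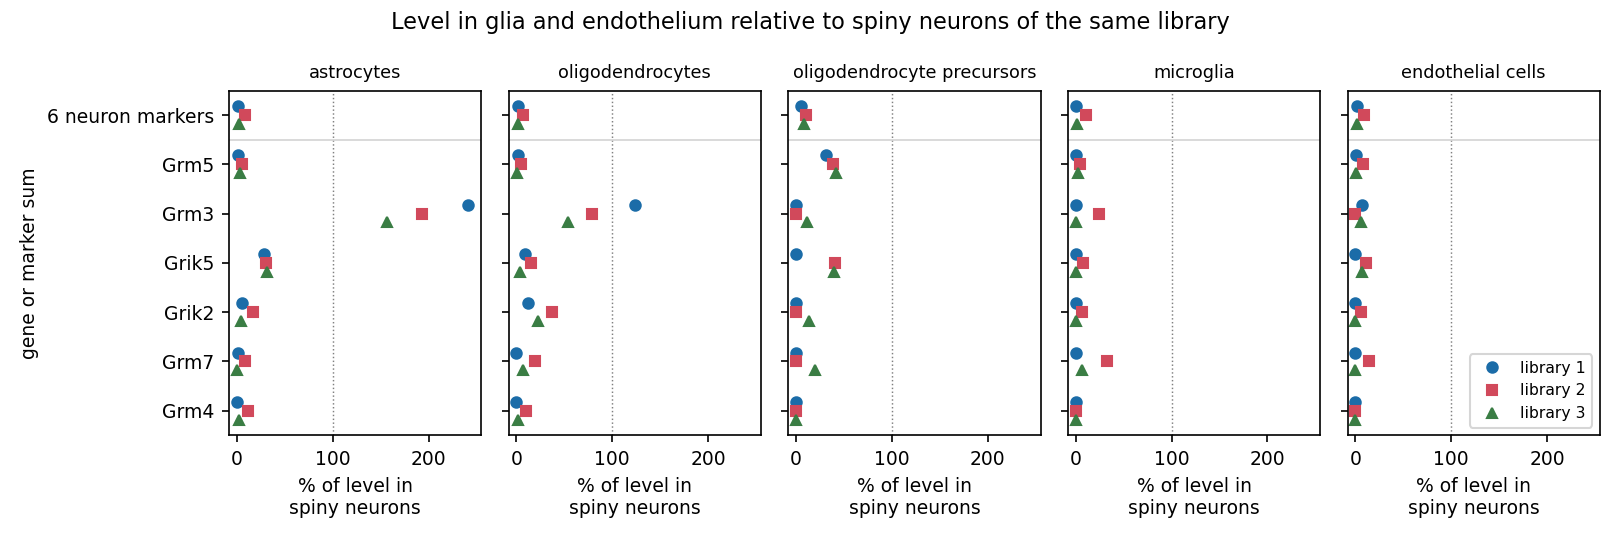
Level in glial and endothelial classes as a percent of the level in spiny neurons of the same library, for the summed 6 neuron markers and 6 receptor genes, 1 symbol per library; the dotted line is 100%. Grm3 in astrocytes (156 to 241%) and Grm5 in oligodendrocyte precursors (31.4 to 41.6%) lie above the neuron marker sum in every library.

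Between glial classes, astrocytes held more Grm3 and Grik5 and less Grik2 than mature oligodendrocytes. Over 8209 genes 46.4% passed in edgeR (24.9% higher, 21.5% lower), and 3 of the 4 receptor genes tested did. Neither the oligodendrocyte sums of Grik5 nor the astrocyte sums of Grik2 met the filter on low counts alone. These 2 calls follow in part from that. Grm3 was at 88.3, 39.5 and 64.8 CPM in oligodendrocytes, below astrocytes in each library and without overlap (1.22, SE 0.23). Grik5 was at 22.1, 25.5 and 7.48 CPM (1.71, SE 0.35). Grik2 was higher in oligodendrocytes, at 13.2, 32.1 and 23.3 CPM, 12.5%, 36.7% and 22.8% of spiny neurons, where the neuron markers stood at 1.12%, 6.69% and 1.57%; the log2 fold change of astrocytes over oligodendrocytes was -1.50 (SE 0.42, adjusted p 0.00458 in edgeR). That Grik2 call ended with DESeq2 and without library 3. Grm5 did not pass (0.77, SE 0.45). Of 12 tested pathway genes 5 passed. Gnai1 was lower in astrocytes (-4.41, SE 0.37, 6.62 ± 7.14 against 151 ± 34.2 CPM), a call that held under every alternative run. Neto2, Itpr1, Plcb1 and Homer3 were higher, and each of these calls ended under at least 1 alternative. Neto2 stood at 17.4, 17.0 and 88.0 CPM in astrocytes against 4.41, 7.41 and 5.82 CPM, so library 3 held most of it.

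Oligodendrocyte precursors (20, 46 and 23 cells) held Grm5 at 203, 232 and 314 CPM (4, 14 and 23 UMIs), against 8.83, 29.6 and 3.32 CPM in mature oligodendrocytes. The ranges did not overlap, and the log2 fold change was 3.75 (SE 0.60, adjusted p 0.0012 in edgeR). Grm3 ran the other way, at 0, 0 and 13.6 CPM (1 UMI in all) against 88.3, 39.5 and 64.8 CPM. The fitted difference was -3.63 (SE 0.84), also without overlap. A floor of 3 counts stands at 152, 49.6 and 40.9 CPM in the precursor sums. The 0 counts of libraries 1 and 2 alone therefore do not show a level below that of oligodendrocytes. Over 4215 genes 31.9% passed in edgeR (13.3% higher and 18.5% lower), and both receptor genes that could be tested did. Grm5 met the filter on low counts only through precursors and Grm3 only through oligodendrocytes, the class where each was high. That both passed follows in part from this and is a description. With class totals alone the median of all genes moved by 0.63, and 71.0% of passing genes were higher in place of 41.8%; both receptor calls held. Both calls ended with any 1 library left out, where only 129 to 237 of all genes passed (1343 with all 3 libraries), and 1 of them with a stricter gate. Precursors carried the neuron markers at 5.37%, 10.1% and 7.80% of their spiny level, and Grm5 at 31.4%, 38.6% and 41.6%, above it in every library. At least 1 Grm5 UMI was found in 30.3% of 89 precursors (median 1146 UMIs), against 2.30% of microglia and 4.10% of endothelial cells. Grik5 stood at 0, 66.1 and 81.8 CPM in precursors (10 UMIs) and Grik3 at 0, 66.1 and 13.6 CPM (5 UMIs), neither of them tested. Of 7 tested pathway genes Neto2 was higher than in oligodendrocytes (2.85, SE 0.58) and Gnai1 and Gnao1 lower.

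In the immune and vascular classes the values rested on few counts. Microglia held 0 UMIs of Grik3 and Grm4, and Grm5 at 0, 24.2 and 17.2 CPM, or 0%, 4.04% and 2.28% of spiny neurons, beside neuron markers at 0.726%, 11.0% and 1.70%. Mural cells held Grm3 at 0, 28.0 and 77.0 CPM (0, 5 and 10 UMIs), or 0%, 56.2% and 64.3% of spiny neurons. Grm7 stood there at 0, 39.2 and 53.9 CPM (0, 7 and 7 UMIs), or 0%, 52.3% and 39.5%. The neuron markers stood at 9.60%, 14.6% and 14.5%, so both genes lay above them in libraries 2 and 3 and below them in library 1. Mural cells entered no test.

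**Figure D4:**
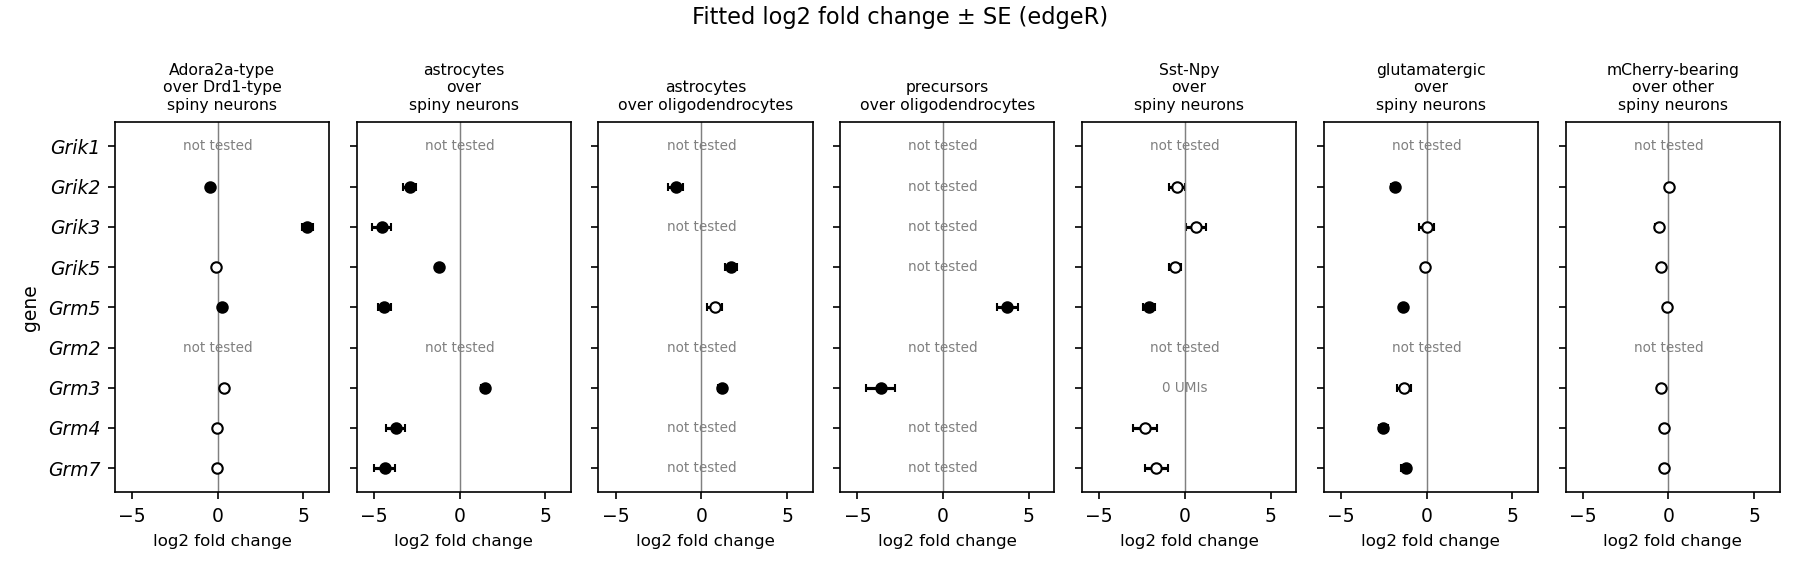
Fitted log2 fold change ± SE (edgeR) of the 9 genes in 7 comparisons; filled points passed at an adjusted p under 0.05, open points did not, and genes below the count filter are marked as not tested, and Grm3 in Sst-Npy interneurons, which passed, is marked by its 0 UMIs. Grik3 at 5.21 stands apart in the first panel, Grm3 at 1.50 is the only gene to the right of 0 among astrocytes over spiny neurons, and no point is filled in the last panel.

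Spiny neurons with at least 1 mCherry UMI (30, 525 and 77 cells) were compared with those without (496, 2073 and 560 cells). No receptor gene passed, and none of 9502 genes did (0%) in edgeR or in DESeq2. At an unadjusted p under 0.05 there were 731 genes in edgeR and 20 in DESeq2. The fitted log2 fold changes of the 7 tested genes ran from -0.57 (Grik3, SE 0.21) to 0.02 (Grik2, SE 0.12), and Grik3, Grm3 and Grik5 had unadjusted p under 0.05. The shares of Drd1-type and Adora2a-type cells with and without mCherry were not compared. A Grik3 difference and a different mix of types therefore cannot be told apart here. Grik5 was at 245, 133 and 138 CPM with mCherry against 236, 175 and 222 CPM without (-0.42, SE 0.11, adjusted p 0.539 in edgeR). Cells with mCherry were deeper in every library, with medians of 1251.5, 3182 and 3895 UMIs against 1127.5, 2414 and 2492.5.

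Across the 14 gated classes, ordered by mean level, Grm5 was highest in Adora2a-type and then Drd1-type neurons, whose ranges overlapped, and both stood above all other classes without overlap. Grm4 and Grm7 were likewise highest in the 2 spiny types, above glutamatergic neurons without overlap. For Grik5, the Sst-Npy, Drd1-type, glutamatergic and Adora2a-type neurons had means from 190 to 210 CPM, with overlapping ranges. The Sst-Npy mean rests on library 1 (449 CPM, 6 UMIs). Its libraries 2 and 3, at 99.0 and 81.6 CPM, lay below every value of the other classes just named. The next class by mean, Pvalb interneurons, was at 62.7 ± 39.4 CPM (SD, n = 3), below the Adora2a type without overlap. For Grm3 the neighbours from astrocytes down to glutamatergic neurons overlapped. The genes whose class means were most like those of each receptor gene (Pearson correlation of log2(mean CPM + 10) over 14 classes, among 12557 genes) were Ntng1 (0.85) and Camsap3 (0.85) for Grik3, and Shisa7 (0.98) and Fcho1 (0.98) for Grm5. For Grm3 they were Repin1 (0.90) and Ephb1 (0.90), for Grm4 Wnt2 (0.99) and Oprk1 (0.98), and for Grik2 Synpr (0.94) and Dgat2 (0.94). For Grik5 they were Maneal (0.97) and Cyp46a1 (0.97), and for Grm7 Slit3 (0.96) and Krt9 (0.93). The classes share libraries and differ in depth, and these correlations are descriptions.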

How the data were processed

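Per the labels, the authors prepared 3 samples with the 3′ v2 single-cell kit of 10x Genomics. The deposited file is 1 pooled matrix of raw UMI counts per gene and cell, made with Cell Ranger 3.0.0, per the file headers, with build mm10 in the submitters' processing notes. Neither the annotation release nor the cell-calling rule is given in the sources used here. The barcode suffix separates 3 libraries, and nothing ties it to a numbered replicate. The matrix holds 28001 features and 11625 cells, of which 3 features are added constructs.

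A minimum of 300 genes and a maximum of 20% mitochondrial UMIs left 10291 cells. Scrublet (scanpy 1.11.5) marked only 76 cells (0.739%) with its automatic threshold and 2 in library 2. The highest scores were therefore removed instead, at 0.8% per 1000 cells (368 cells). Marker lists for 15 classes were applied as gates; 7653 cells were gated, 7 of them cholinergic and not used, 545 neurons met no class and 1725 cells no gate. A non-neuronal class needed at least 3 of its markers (2 for precursors and T cells) and 2 times those of any other list. Spiny neurons needed 3 of 8 markers, and a type needed 2 own markers and 4 times the UMIs of the other type's list. Gate thresholds were set from marker counts after the files were seen, before the receptor genes were looked at. The members and lists were chosen with earlier results of these data known.

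Counts were summed per library and class. Each of 7 comparisons was fitted with edgeR 4.0.16 (R 4.3.3; TMM, filterByExpr, robust quasi-likelihood test, library as block) and adjusted by Benjamini-Hochberg at 0.05. The 2 sums compared are made from the same library, which is where the pairing comes from. DESeq2 1.42.0, other scalings, filters, gates and Leiden classes were alternatives, and scaling by class totals alone was added after the data were seen. Named pathway genes passed with the same sign in 3 libraries, at most the 6 largest a comparison. Not every such gene is reported here. The fits were tested on simulated data. Of 2-fold changes, 94% were found between the spiny types, 5% for Sst-Npy over spiny neurons and 8% for precursors over oligodendrocytes. The other comparisons found 49% to 68%. Of 4-fold changes, the spiny types found 100%, Sst-Npy 40% and precursors 51%, so not passing says little where cells were few.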

Additional observations from a re-analysis of the deposited data

How the results depend on the processing

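The Adora2a-type over Drd1-type count of 3 passing receptor genes became 1 with DESeq2, with no filter on low counts, with no replicate block, with a stricter gate, with all classes in 1 fit and with any 1 library left out (1 to 1). The library block paired sums by construction, and without it this count was 1; for the Sst-Npy comparison it was 3 without the block. Astrocytes over spiny neurons kept 7 except in a fit of all classes (4, where Grik3, Grm4 and Grm7 fell below the filter). Precursors over oligodendrocytes went from 2 to 1 with a stricter gate and 0 to 0 over libraries left out; with cells of at least 1000 UMIs no member was tested. Sst-Npy over spiny neurons went from 2 to 5 with no filter, 4 with Leiden classes and 0 to 0 over libraries left out. Glutamatergic over spiny neurons went from 4 to between 0 and 5 over libraries left out. Over all genes, the Adora2a-type count of 285 was 63 with DESeq2, 25 with no block, 46 with all classes in 1 fit, 79 with a stricter gate, 178 with no filter, 432 with Leiden classes, and 80 to 300 over libraries left out.

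The following differences, none of which passed, changed sign. In Adora2a-type over Drd1-type neurons, Grm4 (-0.02) became 0.0105 with DESeq2, 0.0380 with no replicate block, 0.00129 with Leiden classes, 0.0268 with all classes in 1 fit and -0.0457 to 0.0688 over libraries left out. Grm7 (-0.06) became 0.0287, 0.123, 0.00187 and 0.109 under the same 4 settings, 0.0141 with a stricter gate and -0.180 to 0.234 over libraries left out. In glutamatergic neurons Grik3 (-0.01) became 0.0825 with DESeq2, 0.248 with no replicate block, 0.126 with a stricter gate and -0.665 to 0.731 over libraries left out, and Grik5 (-0.10) -0.217 to 0.0322 over libraries left out. With mCherry, Grik2 (0.02) became -0.0120 with class totals alone, -0.0157 with no filter and -0.00723 to 0.0616 over libraries left out. Grm5 (-0.05) became 0.000195 with Leiden classes and -0.176 to 0.112 over libraries left out. For every change listed here the cause was not tested, except where members fell below a filter. Of 552 fitted differences, 478 kept direction and call, 37 lost the call, 15 gained it and 22 changed sign.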
